A study of Rattus norvegicus with 4 samples.

Results

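Integrin subunits and laminin chains were followed in cultured rat OPCs, the oligodendrocyte precursors, which divide and later mature into the myelin-forming cells of the brain. The genes were chosen by symbol: every integrin alpha or beta subunit, apart from the macrophage pair Itgam and Itgb2, and laminin alpha, beta or gamma chains. The genes analysed were 22, 16 integrin subunits and 6 laminin chains, out of 16581 gene symbols with a probe. Another 12 genes, Itga2, Itga2b, Itga3, Itga9, Itga11, Itgav, Itgax, Itgb8, Lama2, Lama3, Lama4 and Lamb1, were not analysed here. No probe was matched to these 12 by RefSeq accession, which does not show that the array lacks one. All cells came from rat cortex at postnatal day 2, spent 3 days in bFGF and PDGF to proliferate, and were then transfected by Lipofectamine RNAiMax. The miR-125a-3p group (2 samples) received mimics of this microRNA and the miR-neg group (2 samples) the negative control in its place, each at 50 nM. After 48 h the RNA was extracted, and each sample was hybridised to its own single-colour Agilent array. The labels call the cells both OPCs and oligodendrocytes and name no animal or culture for a sample, although the series' design text describes the samples as independent, so a p-value here reflects no more than the spread among these 4 samples.

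Integrins are cell surface receptors made of 1 alpha and 1 beta subunit, which bind matrix proteins outside the cell and the actin cytoskeleton inside it. Laminins are secreted trimers of an alpha, a beta and a gamma chain, and are the main adhesive proteins of basement membranes. In the oligodendrocyte lineage, the receptor formed by Itga6 and Itgb1 binds laminin on axons and is known for its part in survival and myelination.

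The sequences below, given by RefSeq on the GRCr8 assembly, identify the microRNA that was raised. They are printed 5′ to 3′ with the seed, bases 2 to 8, in capitals. The mature 3p strand lies at chr1:67350727-67350748 on the plus strand and has 22 bases, and the 5p strand of the same hairpin, at chr1:67350689-67350712, is shown because its seed differs.
rno-miR-125a-3p: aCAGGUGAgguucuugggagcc
rno-miR-125a-5p: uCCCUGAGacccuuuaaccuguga
The seeds of the strands, CAGGUGA and CCCUGAG, differ. The labels name the mimic after the 3p strand, and the sequence of the mimic itself is not given in the sources used here.

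Levels are log2 processed signals minus the array's own 75th percentile, so 0 marks that percentile, which lay between 679 and 745 signal units. Between 26332 and 28138 of 45598 probes were well above background on an array, and 0 spots were saturated. The 9 OPC markers with a probe, Pdgfra, Cspg4 and Sox10 among them, were detected, but so were all 7 myelin and all 7 neuron markers, 9 of 10 astrocyte markers and 12 of 14 microglia and macrophage markers, so detection does not single out OPCs. The summed level of the OPC markers was between 389 and 413 times the 75th percentile in miR-neg and between 386 and 405 in miR-125a-3p. That of the neuron markers was between 11.1 and 12.4 in miR-neg and between 11.8 and 12.6 in miR-125a-3p. At an unadjusted limma p under 0.05, 2 of 9 OPC markers were lower, Pdgfra (log2 difference -0.37) and Vcan (-0.29), and 0 higher. Of the 7 neuron markers, 2 were higher at that p, Snap25 (0.48) and Stmn2 (0.26), and 0 lower. Of all features, 19.5% had such a p in either direction. All 4 arrays were scanned together on 1 slide, where the position along 1 axis followed the group, so that position and the mimic cannot be told apart.

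Of the 22 genes, 13 were tested because at least 2 arrays had the probe well above background, and 9 were too dim. Of the tested genes, 11 were well above background on all 4 arrays, Lamb2 on 3 and Itgb4 on 2. Itgb4 entered through the miR-125a-3p arrays alone, so counts over the 13 genes are partly set by that filter.

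**Figure D1:**
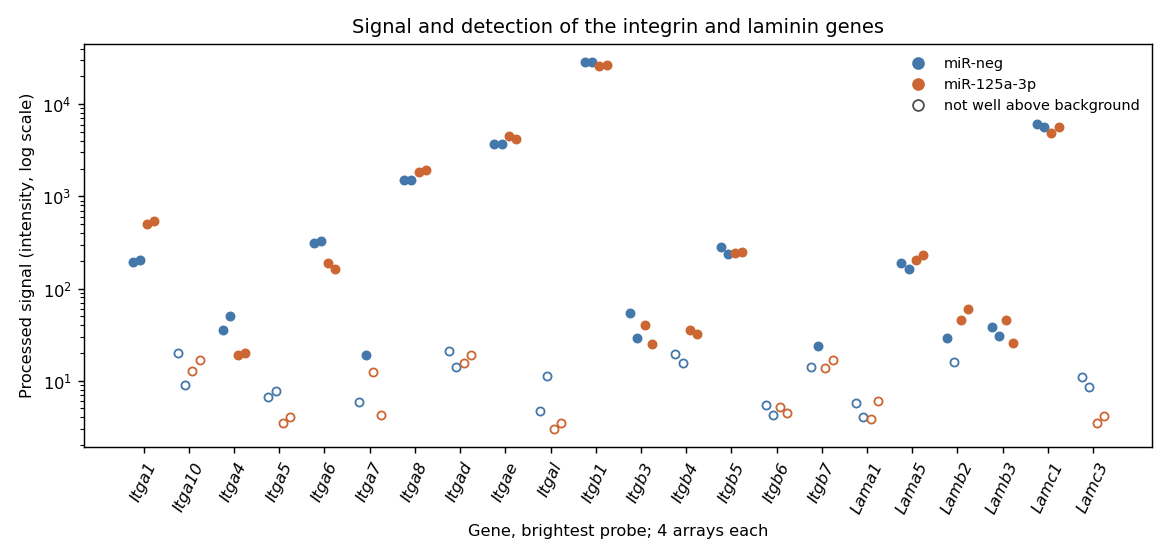
Processed signal (log scale) of the brightest probe of each of the 22 genes on the 4 arrays, blue for miR-neg and orange for miR-125a-3p; open circles were not well above background. Itgb1, Lamc1 and Itgae give bright signals on every array, while 7 genes have 4 open circles; signals of different probes are not comparable as amounts of RNA.

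In limma, with Benjamini-Hochberg adjustment over 23155 features, 1 of 9 tested integrin subunits rose after the mimic, Itga1, and 0 of 4 laminin chains passed an adjusted p of 0.05. Of all features, 0.687% passed, which is the sum of 0.38% higher and 0.307% lower. At an unadjusted p under 0.05, the integrin count was 5 of 9 (3 higher, 2 lower) and the laminin count 2 of 4 (both higher), against 19.5% of all features (10.5% higher and 8.97% lower). Itgb4, which the filter let in through the miR-125a-3p arrays alone, is among the 3 higher. On probes detected on all 4 arrays, which leaves out Itgb4 and Lamb2, these counts were 4 of 8 and 1 of 3. Over all features there, the count was 4528 of 21182. The arrays of the groups did not overlap for 8 of the 9 integrin subunits and 3 of the 4 laminin chains, against 52.9% of all features. The 8 include Itgb4, for which the filter set the direction. They also include Itgb5, whose replicate 2 levels were -1.5114 in miR-neg and -1.5117 in miR-125a-3p after centring, and whose signals before centring overlapped. The median log2 difference was -0.05 for the integrin subunits and 0.17 for the laminin chains, against 0.01 over all features. With 1 array left out, the integrin median ran from -0.05 to 0.07, above 0 without miR-neg replicate 1 (0.065) or miR-125a-3p replicate 2 (0.040). The laminin median ran from 0.10 without miR-neg replicate 2 to 0.35 without miR-125a-3p replicate 2, and was -0.0039 without the filter on dim probes and 0.0093 on probes detected on all 4 arrays. An exact permutation test of 2 samples against 2 has 0.333 as its smallest p, and all p-values given here come from limma.

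The collagen-binding alpha subunits gave the member that passed. Itga1, which pairs with Itgb1 as a receptor for collagen IV and laminin, had signals of 192 and 206 in miR-neg and 505 and 534 in miR-125a-3p. Both miR-125a-3p arrays lay above both miR-neg arrays, with a wide gap and little spread inside either group. On the log2 scale its level went from -1.84 ± 0.16 to -0.45 ± 0.04 (SD, n = 2 each), a rise of 1.39 (SE 0.11, 95% interval 1.08 to 1.69, limma adjusted p = 0.042) or 2.62-fold. Among all 23155 features this was the increase of rank 120. The difference was 1.48 between the replicate 1 arrays and 1.30 between the replicate 2 arrays, which also share a position along the other slide axis. With that position as a block, or with dim probes kept, 0 of all features passed, so a lost call there is not particular to Itga1. Quantile normalization ended the Itga1 call (limma adjusted p = 0.054), as did the block (0.0775) and keeping dim probes (0.241). It also ended with any 1 array left out, at log2 differences between 1.27 and 1.50. Itga10, the other subunit of this group with a matched probe, was not well above background on any array, with signals between 9.06 and 20.1.

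Markers of other cells known to carry collagen receptors were set beside Itga1. The 9 pericyte and fibroblast markers had summed levels of 0.543 and 0.544 times the 75th percentile in miR-neg and 0.966 and 1.12 in miR-125a-3p. Among the 6 of them tested, 1, Tagln, passed, 5 were higher at an unadjusted limma p under 0.05 and the median log2 difference was 1.06. Of all features, 0.38% passed as higher, 10.5% were higher at that unadjusted p, and the median was 0.01. Pdgfrb was tested through the miR-125a-3p arrays alone, so the filter set its direction. The fibroblast markers Dcn and Lum were not well above background on any array. The 10 astrocyte markers summed to 27.9 and 29.8 in miR-neg and 35.6 and 35.1 in miR-125a-3p, and 1 of 9 tested, Aldh1l1, passed. At an unadjusted p under 0.05, 5 of the 9 were higher, and Gjb6 was not well above background on any array. The 8 endothelial markers summed to 3.30 and 3.76 against 3.82 and 3.94, with 0 of 5 tested past the threshold or at an unadjusted p under 0.05 in limma, and Pecam1 was not well above background on any array. The part of these cells in the Itga1 result was not tested. In such bulk RNA, a change in the number of cells of a type and a change in RNA per cell cannot be told apart.

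**Figure D2:**
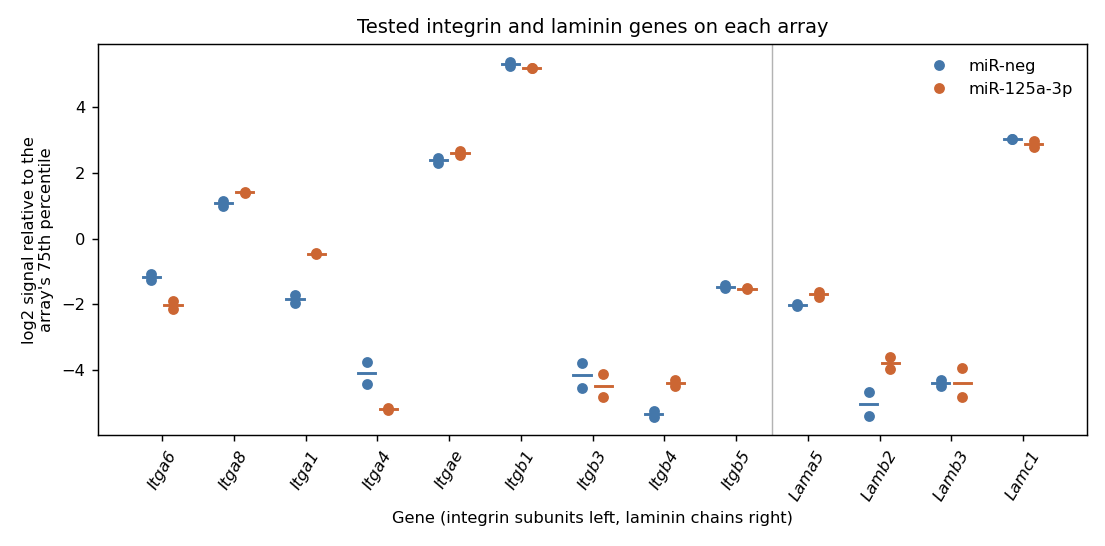
Level on each array of the 13 tested genes (log2 signal relative to the array's 75th percentile), with 1 point per sample and a bar at the group mean (n = 2). The miR-125a-3p points of Itga1, Itgb4 and Lamb2 lie above the miR-neg points, those of Itga4 and Itga6 lie below, and Itgb3 and Lamb3 overlap.

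Among the laminin-binding alpha subunits, Itga6 lay lower after the mimic but did not pass. This subunit forms the laminin receptor of oligodendrocytes with Itgb1. Its brightest probe had signals of 311 and 324 in miR-neg and 188 and 162 in miR-125a-3p. The groups did not overlap. The log2 difference was -0.86 (SE 0.13, 95% interval -1.22 to -0.49, limma adjusted p = 0.086, n = 2 per group). A second probe of the same transcript, with signals of 91.8 and 105 in miR-neg and 67.1 and 40.3 in miR-125a-3p, gave -0.91 (SE 0.30, adjusted p = 0.225), again with no overlap. The call at the brightest probe was gained with normexp (log2 -0.67, adjusted p = 0.0027), with a variance trend (0.00383) and on probes detected on all 4 arrays (0.0455). Itga7, the muscle laminin receptor subunit, was well above background on 1 array of miR-neg, with signals of 5.87 and 19.2 there and 12.5 and 4.28 in miR-125a-3p.

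Myelin genes lay lower beside Itga6. The 7 myelin markers, Mbp, Mog and Mag among them, had summed levels of 635 and 642 times the 75th percentile in miR-neg and 429 and 407 in miR-125a-3p. All 7 lay below 0 (median -0.69) and 0 passed in limma, with 5 at an unadjusted p under 0.05. Of all features, 0.307% passed as lower, 8.97% were lower at that unadjusted p, and 52.5% lay above 0. The part of these cells in the Itga6 result was not tested. The Itga6 partner Itgb1, described with the beta subunits, showed no such difference.

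The RGD-binding alpha subunits recognise the arginine-glycine-aspartate motif of matrix proteins such as fibronectin. Itga8 had signals of 1505 and 1502 in miR-neg and 1854 and 1939 in miR-125a-3p. The groups did not overlap, and the log2 difference was 0.34 (SE 0.09, 95% interval 0.10 to 0.58, limma adjusted p = 0.17). It passed with normexp (adjusted p = 0.0411) and with a variance trend (0.0296), at the same size. Itga5, which forms the classical fibronectin receptor with Itgb1, was not well above background on any array, with signals between 3.46 and 7.76.

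Itga4 forms receptors for fibronectin and the vascular adhesion molecule Vcam1. Its signals were low on every array, at 35.1 and 49.9 in miR-neg and 19.0 and 20.0 in miR-125a-3p. The groups did not overlap, but the miR-neg arrays differed from each other by nearly as much as the lower of them did from the treated arrays. The log2 difference of Itga4 was -1.10 (SE 0.24, 95% interval -1.75 to -0.45, limma adjusted p = 0.131). With normexp it was -0.36 and passed (adjusted p = 0.0465). Itgae, known from lymphocytes in epithelia, had bright probe signals of 3705 and 3719 in miR-neg and 4493 and 4232 in miR-125a-3p, a log2 difference of 0.24 (SE 0.10, adjusted p = 0.30) with no overlap. The leukocyte subunits Itgal and Itgad were not well above background on any array, with signals between 2.99 and 21.1. Microglia and macrophage markers were measured as well. Of 11 tested, 1, C1qa, passed, and the median log2 difference was 1.27. At an unadjusted limma p under 0.05, 7 were higher and 0 lower. Cx3cr1, P2ry12 and Cd68 lay below 0, at -0.06, -0.00075 and -0.28, and Itgam was at 0.09. Of all features, 0.38% passed as higher and 10.5% were higher at that unadjusted p. C1qc was among the 7 through the miR-125a-3p arrays alone. The summed level of all 14 markers was 4.03 and 4.60 in miR-neg and 4.60 and 5.11 in miR-125a-3p, and Itgb2 and Ptprc were not well above background on any array. The part of these cells in the Itga4 and Itgae values was not tested.

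Itgb1, the common beta subunit that pairs with most of the alpha subunits above, had signals of 28369 and 28450 in miR-neg and 25944 and 26491 in miR-125a-3p. The miR-125a-3p arrays lay slightly lower, with a log2 difference of -0.11 (SE 0.09, 95% interval -0.35 to 0.13, limma adjusted p = 0.545). Its second probe gave -0.09 (SE 0.08, adjusted p = 0.589), with overlapping groups. The interval at the brightest probe leaves out the sizes measured for Itga1, Itga4 and Itga6.

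Itgb5, which pairs with Itgav to bind vitronectin, had signals of 279 and 238 in miR-neg and 245 and 251 in miR-125a-3p. Its log2 difference was -0.05 (SE 0.08, 95% interval -0.27 to 0.17), and the centred levels of the groups lay next to each other without overlapping. Itgb3, known from platelets and bone-resorbing cells, had dim signals of 54.2 and 29.2 in miR-neg and 40.3 and 25.2 in miR-125a-3p, which overlapped. Its log2 difference was -0.32 with an interval from -1.33 to 0.70, so its direction was not settled at this signal.

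Itgb4 joins Itga6 in the hemidesmosomes of epithelia and in Schwann cells. Its probe was not well above background on either miR-neg array, with signals of 19.5 and 15.6, and was on both miR-125a-3p arrays, with 35.7 and 32.4. The log2 difference was 0.96 (SE 0.12, limma adjusted p = 0.0652). With any control signal below the lowest well above background raised to that level, Itgb4 was 1.95-fold higher. This equals its plain change, because its own signals were the higher, and is no minimum. The 95% interval of the log2 difference ran from 0.65 to 1.28. With normexp the difference was 0.22, and with median centring the adjusted p was 0.0478. The 4 Schwann cell markers analysed summed to 0.685 and 0.614 times the 75th percentile in miR-neg and 0.352 and 0.378 in miR-125a-3p. Of the 3 tested, 1, Pmp2, passed, against 0.687% of all features. It fell by 1.79 on the log2 scale (limma adjusted p = 0.0373). Prx and Ngfr lay at 0.13 and 0.00046, and Cdh19 was not well above background on any array. The part of such cells in the Itgb4 value was not tested. Itgb6 was not well above background on any array, and Itgb7 was on 1 array of miR-neg.

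**Figure D3:**
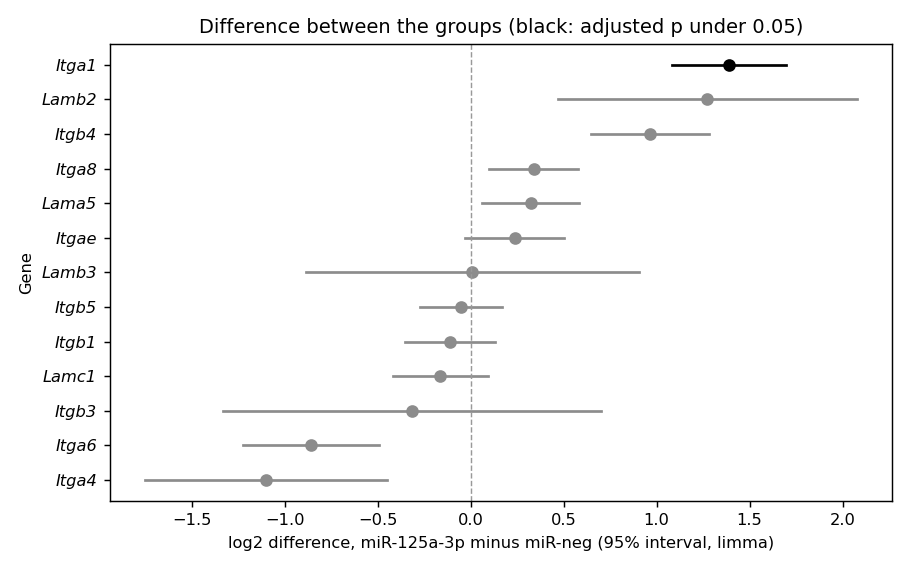
Log2 difference (miR-125a-3p minus miR-neg) of the 13 tested genes with its 95% interval from limma, n = 2 per group; black marks an adjusted p under 0.05. Itga1 is the only black point, at 1.39, and the intervals of Itgb1, Itgb3, Itgb5, Itgae, Lamb3 and Lamc1 cross 0.

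The laminin alpha chains carry the sites that integrins bind. Lama5, the chain of adult vascular and epithelial basement membranes, had signals of 189 and 164 in miR-neg and 206 and 234 in miR-125a-3p. The groups did not overlap, and the log2 difference was 0.32 (SE 0.09, 95% interval 0.06 to 0.58, limma adjusted p = 0.198). A second Lama5 probe and the Lama1 probe were not well above background on any array.

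Of the beta chains, Lamb2, known from the synaptic and kidney basement membranes, had signals of 29.1 and 16.1 in miR-neg and 45.4 and 59.8 in miR-125a-3p, the second of the control values being not well above background. The groups did not overlap. The log2 difference was 1.27 (SE 0.29, 95% interval 0.47 to 2.08, adjusted p = 0.145), with an SD of 0.51 between the control arrays. With normexp the difference of Lamb2 was 0.37, and with a variance trend its call was gained (adjusted p = 0.0341). Lamb3, a chain of skin laminin, had signals of 38.1 and 30.5 in miR-neg and 46.0 and 25.4 in miR-125a-3p, with a difference of 0.01 and an interval from -0.89 to 0.91.

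Lamc1, the gamma chain of most laminin trimers, had signals of 6159 and 5596 in miR-neg and 4889 and 5594 in miR-125a-3p. All values lay close together, and the log2 difference was -0.16 (SE 0.09, 95% interval -0.42 to 0.09, adjusted p = 0.42). Lamc3 was not well above background on any array.

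Genes that work with these receptors and chains were compared as 3 lists. The lists were chosen with earlier results of these data known, so their shares are descriptive and are no test of enrichment. In the list of other laminin receptors and basement membrane partners, 1 of 17 tested genes rose and 0 fell (5.88%), against 0.687% of all features. Of the 17, 4 lay above 0 (median -0.11), against 52.5% of all features. Sdc4, a heparan sulfate proteoglycan that acts beside integrins in focal adhesions, had log2 levels of -3.32 and -3.12 in miR-neg and -1.75 and -1.69 in miR-125a-3p. It rose by 1.50 (SE 0.11, limma adjusted p = 0.0373), and by 0.94 with normexp. The matricellular gene Sparc was at 0.96 (SE 0.10, adjusted p = 0.0534), and Nid2, which links laminin to collagen IV, was at -0.62 (SE 0.08, adjusted p = 0.0705). Ntn1, a guidance molecule related to laminins, was at -0.33 and Dag1, the dystroglycan receptor for laminin, at -0.20, and neither passed.

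Among non-laminin ligands of integrins, 3 of 18 tested genes rose and 0 fell (16.7%), against 0.687% of all features. Of the 18, 15 lay above 0 (median 0.27), against 52.5% of all features. The matricellular gene Ccn1 had log2 levels of -2.97 and -2.96 in miR-neg and -1.53 and -1.60 in miR-125a-3p. It rose by 1.40 (SE 0.08, limma adjusted p = 0.0357). Ccn2 and Icam1, a ligand of leukocyte integrins, rose by 2.18 and 1.05 (adjusted p = 0.0373 each), and by 0.95 and 0.86 with normexp. The fibronectin gene Fn1 was at 1.17 (SE 0.13, adjusted p = 0.0573) and the Itga4 ligand Vcam1 at 0.49 (adjusted p = 0.0967), and neither passed. Spp1, osteopontin, was not well above background on either miR-neg array and was 4.37-fold higher with its control signals raised in the same way (adjusted p = 0.0615), with a log2 difference of 0.50 under normexp. It entered the test through the miR-125a-3p arrays alone, so the filter set its direction in the count above 0 and in the median.

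Adaptors and kinases at the integrin tail gave 1 fall and 0 rises among 32 tested genes (3.12%), against 0.687% of all features. Of the 32, 18 lay above 0 (median 0.02), against 52.5% of all features. Parvb, an actin-binding partner of integrin-linked kinase, had log2 levels of -1.06 and -1.09 in miR-neg and -2.14 and -2.12 in miR-125a-3p. It fell by 1.06 (SE 0.07, limma adjusted p = 0.0373). Its paralogue Parva lay the other way, at 0.73 (SE 0.09, adjusted p = 0.0657), with the groups apart, and did not pass. The difference between the paralogues was not tested. Dab2, an endocytic adaptor of integrins, was at 0.58 and Lims2 at 0.33, and Ptk2, the focal adhesion kinase gene, at -0.30, and none of the 3 passed.

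**Figure D4:**
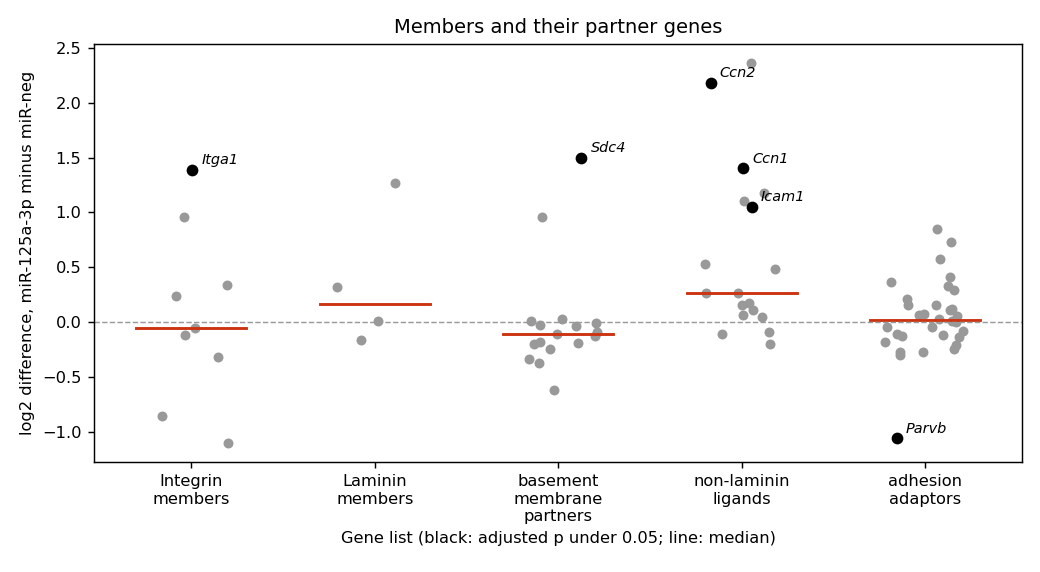
Log2 difference (miR-125a-3p minus miR-neg) of each tested gene in the integrin and laminin groups and in the 3 partner lists, with the median as a red line; black points have a limma adjusted p under 0.05 and are named. The calls are Itga1, Sdc4, Ccn1, Ccn2 and Icam1 above 0 and Parvb below 0; horizontal scatter within a list carries no value.

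Normexp, another background correction, was run with an offset of 50 signal units. Under it the differences of the dim probes of Itga4, Itgb4 and Lamb2 shrank to -0.36, 0.22 and 0.37. That of Itga1, a brighter probe, was 1.12 (limma adjusted p = 0.000148). Such an offset shrinks log2 differences of dim signals by construction, so these values do not tell whether the dim differences are unreliable. The calls of Sdc4 and Ccn2 ended with quantile normalization (adjusted p = 0.0509 and 0.0536), while those of Ccn1, Icam1 and Parvb held (0.0435 each). With the slide position as a block, or with dim probes kept, 0 of all features passed. As with Itga1, each of these 5 calls ended with that block (limma adjusted p = 0.0641 to 0.0888). Each also ended with dim probes kept (0.230 to 0.241) and when any 1 array was left out.

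**Figure D5:**
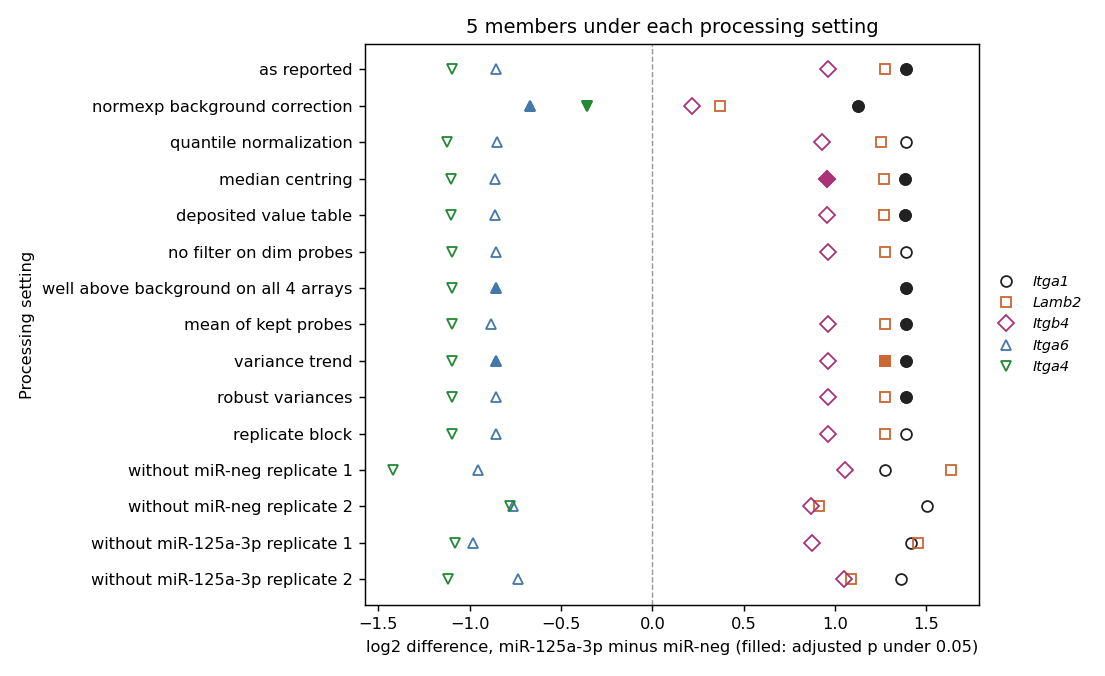
Log2 difference (miR-125a-3p minus miR-neg) of 5 genes under each processing setting, with filled symbols for a limma adjusted p under 0.05. Itga1 stays between 1.12 and 1.50 and Itga6 between -0.98 and -0.67, whereas Itga4, Itgb4 and Lamb2 move toward 0 with normexp; Itgb4 and Lamb2 have no value on probes detected on all 4 arrays.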

How the data were processed

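The deposited scanner intensities came from Agilent Feature Extraction (version 10.7.3.1 per the submitters' processing notes), which subtracted background and detrended them array by array but did not scale arrays to each other, per the file headers. The deposited value table held log2 values and differed from the log2 processed intensity by a fixed amount on each array, within 0.01 for 100% of probes. Its median was -4.06 and -4.14 in the miR-neg columns and -4.07 and -4.13 in those of miR-125a-3p, with the 75th percentile between 0.0042 and 0.0069. None of scale, centring and direction therefore stays unknown. The scanner files analysed here have no column of gene names, so RefSeq accessions were paired with symbols through a GRCr8 table (21109 of 45598 probes, 46.3%). Gene coordinates are not given, because the array was designed on another assembly.

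Control spots and outlier spots were left out, log2 signals of a probe's spots were averaged, and arrays were centred on their 75th percentile. A probe counted as well above background where at least 0.5 of its spots were. Probes detected on at least 2 arrays (27250) were kept, 65 probes with flagged spots left out, and the brightest probe stood for its gene. The test was limma's (version 3.58.1, R 4.3.3; lmFit with eBayes, two-sided), adjusted by Benjamini-Hochberg over 23155 features, at a threshold of 0.05. The test was also run on simulated arrays, with normal noise at variances drawn from the fit itself and without a variance trend. That run cannot tell whether such variances suit the real arrays. The number of arrays limits the precision.

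Integrin and laminin genes were described one by one and marker lists by their totals and counts. Beside the marker genes given only within their list, 1 chain and 2 genes left out of their marker lists are not reported here. From the partner lists, called genes and up to 4 others with the smallest p were named. Dag1 was added after its value was seen. The members and lists were chosen with earlier results of these data known. Alternatives were normexp with an offset of 50, quantile and median normalization, the deposited table, other filters and probe averaging. Also tried were other variance models, a threshold of 0.1, a replicate block and leaving out each array.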

Additional observations from a re-analysis of the deposited data

How the results depend on the processing

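The count of 159 features past the threshold became 1601 (772 higher, 829 lower) with normexp, 83 (37 and 46) with quantile normalization, 2048 (1017 and 1031) with a variance trend, 613 (283 and 330) on probes detected on all 4 arrays, 984 (514 and 470) at a threshold of 0.1, and 0 with dim probes kept, when 3956 features had an unadjusted limma p under 0.05. With the replicate number as a block, which is also the position along 1 slide axis, it was 0, with 3968 such features, and with 1 array left out it ranged from 0 to 0, with 2748 to 4116 such features. The array left alone in its group is there given the spread of the other group. The 1 called integrin subunit became 4 with normexp, 3 with a variance trend, 3 at a threshold of 0.1, 2 with median centring, 2 on probes detected on all 4 arrays, and 0 with quantile normalization, without the filter and with the replicate block. The laminin count of 0 became 1 with a variance trend. Called basement membrane partners (1) became 3 with normexp, a variance trend, a threshold of 0.1 or detection on all 4 arrays, and 0 with quantile normalization. Called ligands (3) became 7 with normexp or a variance trend and 6 at a threshold of 0.1. Called adaptors (1) became 4 with normexp, 5 with a variance trend and 2 with detection on all 4 arrays or at a threshold of 0.1. Each of these lists, and the integrin subunits, had 0 calls without the filter and with the replicate block, and from 0 to 0 with 1 array left out. At an unadjusted limma p under 0.05, the integrin count was 5 of 9 as reported, 6 of 16 without the filter and 6 of 9 with the block. Over all features these counts were 4516 of 23155, 3956 of 39455 and 3968 of 23155. Lamb3 (0.01) reversed with normexp (-0.022) and quantile normalization (-0.0027), and ranged from -0.44 to 0.45 with 1 array left out, as did Itgb3 (-0.32), from -0.70 to 0.065; neither was called in any setting. For the other 11 tested genes the sign was the same under all alternatives with a value. The cause was not tested. Same-numbered arrays had deviations correlated at 0.0505, and 2 pairs are too few to say whether equal numbers mean shared origin. Normexp on median spot signals was chosen after seeing the data, in place of mean signals, a column not used here. At low signals, as for Itgb3 and Lamb2, differences of 1 on the log2 scale could lie within the intervals.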
